A study of Mus musculus with 4 samples.

Results

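The EGR, IER and KLF immediate early genes are 10 genes chosen by name, Egr1, Egr2 and Egr3, Ier2, Ier3 and Ier5, and Klf2, Klf4, Klf6 and Klf10. These genes and the lists set beside them were chosen with earlier results of these data known, which limits what their counts can show. All 10 were found among the 19938 mouse genes with a probe of their own on the array, each through 1 probe. All 10 were also among the 11174 genes kept because their brightest value reached log2 7.09, the median of all values. Brightness alone decided this filter, which does not say whether a gene was detected.

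The cells were adherent peritoneal macrophages of wild-type C57BL/6 mice aged 8 to 12 weeks, collected 3 days after 1 mL of 4% thioglycolic acid had been injected into the peritoneal cavity to draw cells there. They were cultured for 6 h with a fatty acid at 500 µM bound to bovine serum albumin (BSA), and each group was measured on 1 Affymetrix array. The groups were a control without fatty acid, the saturated palmitic acid with 16 carbons, and the unsaturated oleic and linoleic acids, both with 18 carbons and with 1 and 2 double bonds. The control is labelled as BSA alone, whereas the treatment protocol describes its vehicle as ethanol with KOH. Each array held RNA pooled from 3 samples, and it is not stated whether these came from separate mice. With 1 array per group no spread between samples can be estimated, so no difference below has a test or an interval, and the order of values for a gene has no error attached. In RNA of a mixed culture, fewer cells of a type and less RNA per cell cannot be told apart.

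Immediate early genes are transcribed within minutes of a stimulus from factors already present in the cell, such as serum response factor (SRF) with its ternary complex partners downstream of the ERK kinases. EGR proteins are zinc finger activators that bind GC-rich sites and are held in check by the NAB corepressors. KLF proteins are zinc finger activators or repressors that bind GC and CACCC boxes, and several of them set the activation state of macrophages. IER genes are named for their rapid induction. Most of these transcripts are short-lived, and the arrays were made at a single time, 6 h.

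The largest differences lay in 3 genes. Ier2 was lower on the palmitic acid array than on any other. Klf10 was higher on the oleic acid array than on any other. Ier3 was lower than the control with palmitic acid and higher with oleic acid. The remaining genes spanned at most 0.54 in log2 over the 4 arrays. Values are log2 intensities after RMA, and a difference counts here when it is at least 1.5-fold, or 0.58 in log2.

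**Figure D1:**
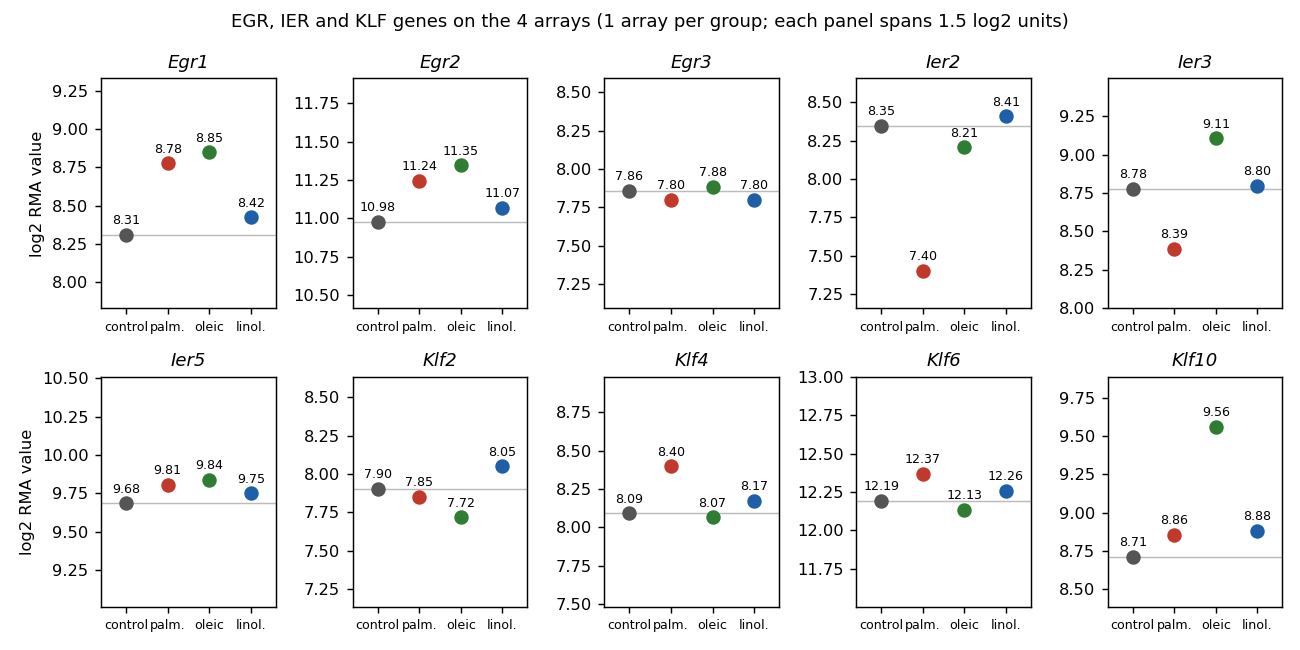
Each panel shows 1 gene, with the log2 RMA value on the y axis and the 4 arrays on the x axis (1 point per array, no error bars because each group is 1 array). The grey line marks the control, and every panel spans the same number of log2 units; Ier2 stands low with palmitic acid (7.40) and Klf10 high with oleic acid (9.56).

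Egr1 codes for the best known early growth response factor, which is induced through SRF and the ERK pathway. Its log2 value was 8.31 in control, 8.78 in palmitic acid, 8.85 in oleic acid and 8.42 in linoleic acid cultures. The palmitic and oleic acid arrays were thus high and the other two low. The difference from the control was 0.54 with oleic acid, a 1.45-fold difference that lies just short of the 1.5-fold line, and 0.47 with palmitic acid, or 1.38-fold. Of the 11174 kept genes, 54 had an oleic acid difference at least as high as that of Egr1, and 435 had a palmitic acid difference at least as high.

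Egr2, a paralogue that macrophages also induce during interleukin-4 signalling, had the same order of arrays at a smaller size. It stood at 10.98 in the control, 11.07 with linoleic acid, 11.24 with palmitic acid and 11.35 with oleic acid. The oleic acid difference of 0.37 was reached or exceeded by 173 kept genes. Egr3, known for its roles in lymphocytes and muscle spindles, was flat, with 7.86 in control, 7.80 in palmitic acid, 7.88 in oleic acid and 7.80 in linoleic acid cultures. Its range of 0.08 was among the narrowest, since 10289 of the kept genes had a range at least as wide.

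Egr2 is shown here because its promoter holds the motif that SRF binds, the CArG box, and no other gene of the 10 with a promoter at hand does. RefSeq promoters of build GRCm38.p6, each 250 bases before to 50 after a start site, were matched for 6 of the 10 genes, namely Egr2, Ier3, Ier5, Klf2, Klf4 and Klf6. Promoters of Egr1, Egr3, Ier2 and Klf10 were not matched. Both CArG boxes are given below within 30 bases of the plus strand, 5′ to 3′, with the box in capitals. The first lies at chr10:67537484-67537513 and the second at chr10:67537787-67537816.

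Egr2 CArG box 1: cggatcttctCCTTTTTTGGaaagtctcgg

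Egr2 CArG box 2: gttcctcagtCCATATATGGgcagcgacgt

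The 6 genes have 10 promoters, 5 of them of Egr2. A CArG box on either strand was present in 4 of the 10, all of Egr2, and in 1.63% of all 32851 promoters of this length. These 4 promoters hold only the 2 boxes printed above, since start sites of Egr2 lie close together. They are thus not separate sites, and by gene the count was 1 of 6. A match describes the letters and is not evidence of binding. The EGR binding site GCGNGGGCG was searched on both strands and was found in 2 of the 10, those of Klf2 and Klf4, and in 5.55% of all promoters. Klf4 had 2 matches and Klf2 had 1, and each overlaps a GC box. The GC box GGGCGG, which SP and KLF proteins can bind, was found in 7 of the 10, with each of the 6 genes represented, and in 35.7% of all promoters. The full cyclic AMP response element TGACGTCA was found in 0 of the 10 and in 1.79% of all promoters.

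The other genes of the EGR branch were listed as Egr4, the corepressor genes Nab1 and Nab2, and Wt1, whose zinc fingers resemble those of EGR proteins and which is also a mesothelial marker. Nab2 is itself a known EGR target. It stood at 10.99 in control, 10.20 in palmitic acid, 10.96 in oleic acid and 11.06 in linoleic acid cultures. Nab2 was thus low on the palmitic acid array alone, with a difference of -0.78, while Egr1 was higher there. Egr4 (-0.23), Nab1 (-0.23) and Wt1 (-0.26) also had values below the control with palmitic acid. Thus 1 of the 4 was beyond 1.5-fold downward, beside 1.41% of all kept genes, and the median of the list was -0.24. With oleic and linoleic acid 0 of the 4 were beyond 1.5-fold, with medians of 0.02 and 0.03. Of all kept genes 0.376% were higher and 0.34% lower with oleic acid, and 0.0358% each way with linoleic acid.

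Of 14 listed EGR target genes 10 were measured, 4 are not analysed here, and 9 were bright enough to be kept. Beyond 1.5-fold with palmitic acid were 3 higher and 2 lower genes, beside 2.17% and 1.41% of all kept genes. The higher ones were Plau (0.90), which codes for urokinase, Rcan1 (0.60), a calcineurin regulator, and Sphk1 (0.59), a sphingosine kinase. Lower were Nab2 and Id3 (-0.84), an inhibitor of helix-loop-helix factors. Id3 was dim with palmitic acid, at 6.69, and differed by -0.44 once values below log2 7.09 were set to it. With oleic acid, where Egr1 was highest, 0 of the 9 were beyond 1.5-fold and the list median was 0.02. Of all kept genes only 0.376% were higher and 0.34% lower there, so a count of 0 says little about 9 genes.

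Ier2 codes for a short-lived nuclear protein of the immediate early response. It stood at 8.35 in control, 7.40 in palmitic acid, 8.21 in oleic acid and 8.41 in linoleic acid cultures. The palmitic acid array was low and the other three spanned 0.20. The difference from the control was -0.95, a 1.93-fold lower value, and 43 of the 11174 kept genes, Ier2 included, were at or below it. Palmitic minus linoleic acid was -1.01, a 2.01-fold lower value, and palmitic minus oleic acid was -0.80.

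The genes most like Ier2 in their profile over the 4 arrays were found by the smallest Euclidean distance in log2 after each profile was centred on its mean, among 10726 kept genes. They were Pilrb2, a paired immunoglobulin-like receptor gene, at a distance of 0.046, Creb3l1, a membrane-bound transcription factor gene, at 0.048, and Pdgfra, a growth factor receptor gene of fibroblasts, at 0.081. Their palmitic acid differences were -0.94, -0.97 and -0.86, which lie near that of Ier2 because the genes were picked for a like profile.

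Pdgfra is also a marker of cells other than macrophages. Of 14 listed mesothelial and fibroblast markers 9 were kept. With palmitic acid 2 of the 9 were at least 1.5-fold lower, beside 1.41% of all kept genes, and 0 higher, beside 2.17%. The 2 were Pdgfra (-0.86), already picked for its likeness to Ier2, and Pdgfrb (-1.29). All 9 had values below the control with palmitic acid, with a median of -0.26. With oleic acid, where Ier2 lay at -0.14, Pdgfrb was again beyond 1.5-fold (-0.71), Pdgfra lay at -0.06 and the median was -0.01. The summed linear intensity of the 14 was 6123 in control, 4663 in palmitic acid, 5664 in oleic acid and 6477 in linoleic acid cultures, the same order of arrays as for Ier2. This sum includes Pdgfra and Pdgfrb, which had the largest palmitic acid differences of the 9 kept markers. Its order is thus not independent of the pick of Pdgfra. The median log2 value of the 14 had another order, with 7.91 in control, 7.62 in palmitic acid, 8.01 in oleic acid and 7.85 in linoleic acid cultures. Upk3b, Upk1b, Krt19, Lrrn4 and Lum did not reach log2 7.09 on any array. Whether these cells had a part in the Ier2 difference was not tested.

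Ier3 codes for a stress-induced regulator of cell survival and is a target of NF-kB. Its values were 8.78 in control, 8.39 in palmitic acid, 9.11 in oleic acid and 8.80 in linoleic acid cultures. Control and linoleic acid lay together, palmitic acid below them and oleic acid above them. The difference was -0.39 with palmitic acid and 0.33 with oleic acid, each short of 1.5-fold. Directly compared, palmitic minus oleic acid was -0.72, a 1.65-fold lower value, and 100 of the kept genes were at or below that difference.

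The promoter of Ier3 is printed because it is the only one of the 3 genes with the largest differences for which a promoter was matched. The 250 bases before its start site lie at chr17:35821463-35821712 on the plus strand of GRCm38.p6. Capitals mark the single GC box, GGGCGG, which begins 96 bases before the start.

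Ier3 promoter: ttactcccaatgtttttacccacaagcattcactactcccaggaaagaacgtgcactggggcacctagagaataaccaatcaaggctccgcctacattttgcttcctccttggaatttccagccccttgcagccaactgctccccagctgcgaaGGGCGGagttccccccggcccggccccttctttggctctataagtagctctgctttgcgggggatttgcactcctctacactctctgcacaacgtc

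Ier5, whose protein promotes the activity of heat shock factor, varied little. It stood at 9.68 in control, 9.81 in palmitic acid, 9.84 in oleic acid and 9.75 in linoleic acid cultures, a range of 0.15. Its relative Ier5l lay at 7.81 in the control and differed from it by -0.09, 0.04 and 0.08 with palmitic, oleic and linoleic acid. The 3 IER genes therefore had unlike profiles. With palmitic acid their differences ran from -0.95 to 0.12.

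Klf10, also called TGF-beta inducible early gene, codes for a repressor first known from TGF-beta signalling. It stood at 8.71 in control, 8.86 in palmitic acid, 9.56 in oleic acid and 8.88 in linoleic acid cultures. The oleic acid array was high and the other three spanned 0.17. The difference of 0.85 from the control is 1.80-fold, and 11 of the 11174 kept genes, Klf10 included, reached it. Linoleic acid has 1 more double bond than oleic acid. Linoleic minus oleic acid was -0.68, and 24 kept genes were at or below that difference. Palmitic minus oleic acid was -0.71.

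Nearest to Klf10 in profile were Tle3, which codes for a Groucho-type corepressor, at a distance of 0.0845, Dgka, a diacylglycerol kinase gene, at 0.171, and Neurl3, a ubiquitin ligase gene, at 0.185. Their oleic acid differences were 0.85, 0.65 and 0.61, where the choice by profile itself favours values near that of Klf10. Klf11 is the relative of Klf10 that TGF-beta also induces. It was the one gene of the other KLF list at least 1.5-fold higher with oleic acid, beside 0.376% of all kept genes. It stood at 8.54 in control, 9.01 in palmitic acid, 9.22 in oleic acid and 8.57 in linoleic acid cultures. Klf11 was thus high on the palmitic acid array as well, by 0.47, where Klf10 differed by 0.14.

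Of 10 TGF-beta and SMAD genes listed around Klf10, 0 were beyond 1.5-fold in either direction with any fatty acid. Over all kept genes the shares higher and lower were 2.17% and 1.41% with palmitic acid and 0.376% and 0.34% with oleic acid. With linoleic acid they were 0.0358% each way. Beside such shares a count of 0 says little about 10 genes. The list medians were 0.09, 0.04 and 0.04 for palmitic, oleic and linoleic acid. Largest with oleic acid was the receptor gene Tgfbr2, at 0.32, followed by the corepressor gene Ski, at 0.25. The ligand gene Tgfb1 stood at 12.42 in the control and 12.44 with oleic acid, and the inhibitory Smad7 at 7.73 and 7.94.

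Klf2 and Klf4 are induced through the kinase ERK5 and its MEF2 factors, and both restrain inflammatory activation of monocytes and macrophages. Klf2 stood at 7.90 in control, 7.85 in palmitic acid, 7.72 in oleic acid and 8.05 in linoleic acid cultures. Klf4 stood at 8.09, 8.40, 8.07 and 8.17 in the same order of arrays. Klf2 was therefore lowest with oleic and highest with linoleic acid, 0.33 apart, whereas Klf4 was highest with palmitic acid, by 0.31 over the control. Neither reached 1.5-fold in any of the 6 comparisons.

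Among 7 ERK5 and MEF2 genes 0 were beyond 1.5-fold with any fatty acid, with medians of 0.07, 0.07 and 0.15 for palmitic, oleic and linoleic acid. Of 13 listed KLF2 and KLF4 target genes, 10 were measured and 7 kept, and 0 of these were beyond 1.5-fold with any fatty acid. The largest of their palmitic acid differences were those of Mrc1 (0.23), the mannose receptor gene, and F3 (-0.19), the tissue factor gene.

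Klf6, a regulator of inflammatory macrophage activation, was bright on every array, with 12.19 in control, 12.37 in palmitic acid, 12.13 in oleic acid and 12.26 in linoleic acid cultures. Its range was 0.23. Of the 13 other KLF genes 10 were kept. Beyond 1.5-fold with palmitic acid were 1 higher gene, Klf8 (0.76), which codes for a repressor, and 1 lower gene, Klf7 (-0.81), with Klf3 at -0.58 just inside the line. Over all kept genes the shares were 2.17% higher and 1.41% lower. The list median was -0.08, 0.02 and 0.05 for palmitic, oleic and linoleic acid. Klf8 and Klf7 lay at 0.03 and -0.01 with oleic acid.

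**Figure D2:**
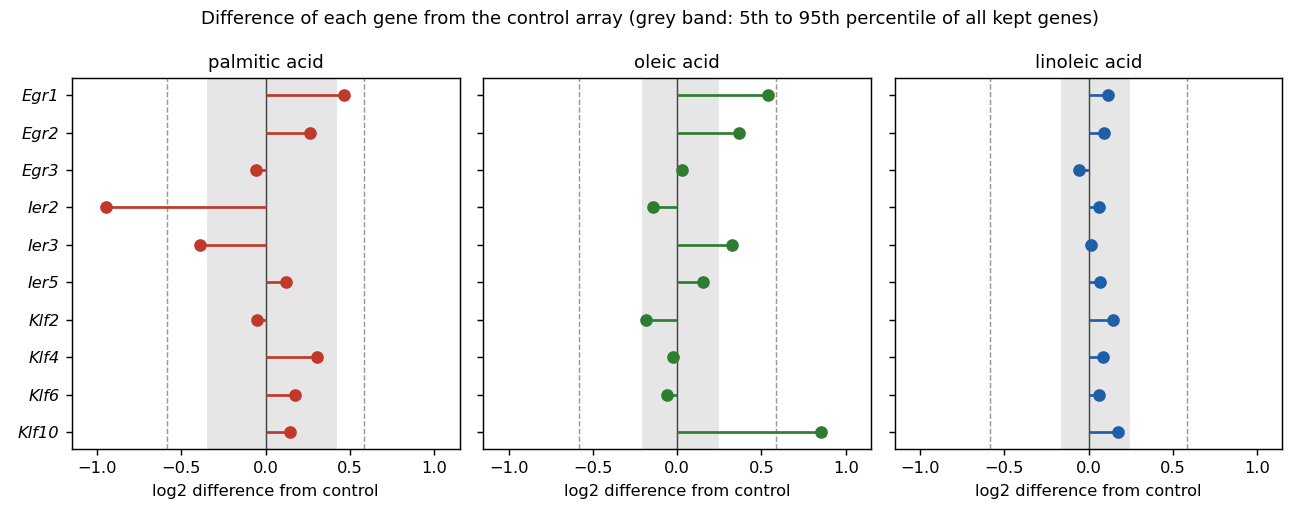
Each point is the log2 difference of 1 gene from the control array (x axis), in a panel for each fatty acid, with genes on the y axis. The grey band holds 90% of the 11174 kept genes and dashed lines mark 1.5-fold; Ier2 with palmitic acid (-0.95) and Klf10 with oleic acid (0.85) lie beyond the lines.

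Read as a set against the control, the 10 genes did not share a direction with palmitic acid. In that comparison 0 of the 10 were at least 1.5-fold higher, beside 2.17% of all kept genes, and 1 was at least 1.5-fold lower, beside 1.41%. That gene was Ier2, so the count describes a single gene. The median of the 10 was 0.13, beside 0.0006 over all kept genes, and 6 were above and 4 below the control. Ier2, Ier3 and Egr1 lay outside the band from -0.34 to 0.42 that held 90% of kept genes. The all-gene shares for palmitic acid depended on the scaling. The 242 higher and 157 lower genes became 197 and 184 with quantiles normalised again, and 250 and 149 with centring.

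With oleic acid 1 of the 10, Klf10, was at least 1.5-fold higher, beside 0.376% of all kept genes, and 0 were at least 1.5-fold lower, beside 0.34%. The median was 0.09, beside 0.01 over all kept genes. Klf10, Egr1, Egr2 and Ier3 lay above the band from -0.20 to 0.24 that held 90% of kept genes, and none of the 10 lay below it.

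With linoleic acid 0 of the 10 were at least 1.5-fold higher and 0 lower, beside 0.0358% of all kept genes in each direction. All 10 lay within the band from -0.16 to 0.24 that held 90% of kept genes, the highest being Klf10 at 0.17 and the lowest Egr3 at -0.06. Values above the control were found for 9 of the 10, with a median of 0.07, but 65.2% of all kept genes were also above 0 there, with a median of 0.04. The number above 0 was 8 when arrays were centred on their medians and 7 when quantiles were normalised again. Over all kept genes the 4 higher and 4 lower became 2 and 7 with centring and 2 and 9 with quantiles normalised again. All 3 comparisons subtract the same control array.

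**Figure D3:**
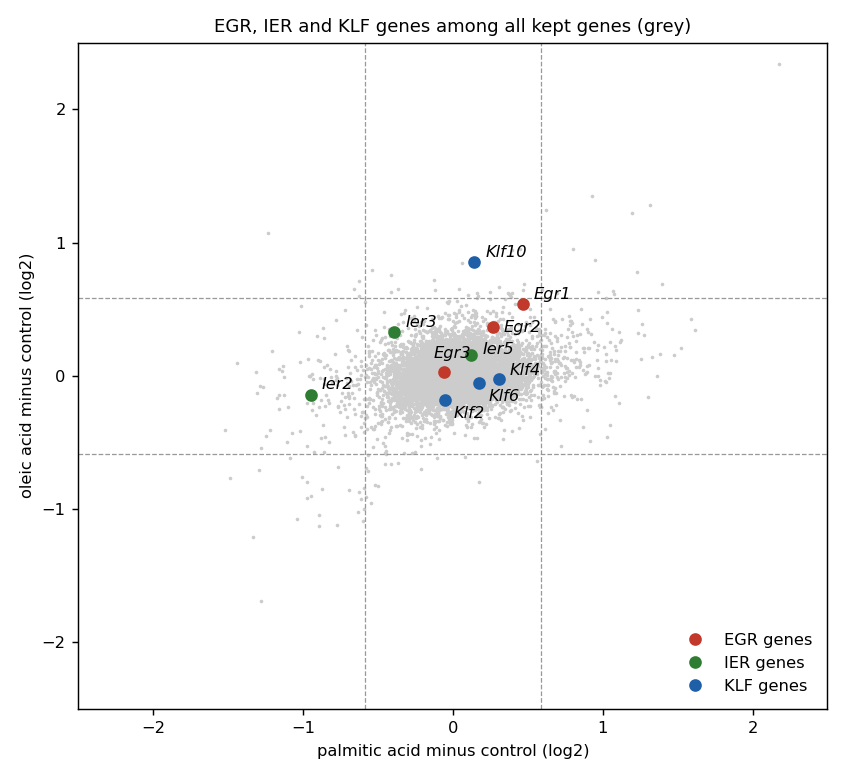
The log2 difference from the control is shown for palmitic acid (x axis) and oleic acid (y axis), with the 11174 kept genes in grey, EGR genes in red, IER genes in green and KLF genes in blue, and dashed lines at 1.5-fold. Both axes share the control array; Egr1 and Egr2 lie to the upper right, Ier3 to the upper left, Ier2 to the left and Klf10 at the top.

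The 3 fatty acids were compared with each other at the same concentration and time. Palmitic acid differs from oleic acid in chain length and in its lack of a double bond. Between these 2 arrays 3 of the 10 genes had a palmitic acid value at least 1.5-fold lower, beside 1.66% of all kept genes, and 0 were higher, beside 1.82%. These were Ier2 (-0.80), Ier3 (-0.72) and Klf10 (-0.71). For Klf10 the oleic acid value was the one away from the control, for Ier2 the palmitic acid value, and for Ier3 both. Egr1 (-0.07) and Egr2 (-0.10) differed little between the same arrays.

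Between palmitic and linoleic acid 1 of the 10, Ier2, was at least 1.5-fold lower with palmitic acid, beside 2.01% of all kept genes, and 0 were higher, beside 1.58%. Ier3 (-0.41) and Egr1 (0.35) came next in size. Which side was larger over all kept genes depended on the scaling for both pairs. The 203 higher and 185 lower genes between palmitic and oleic acid became 162 and 219 with quantiles normalised again, and the 177 and 225 between palmitic and linoleic acid became 212 and 187 with centring. Linoleic and oleic acid have the same chain length. Of the 10 genes 1, Klf10, was at least 1.5-fold lower with linoleic acid, beside 0.34% of all kept genes, and 0 were higher, beside 0.707%. Egr1 lay at -0.42 and Klf2 at 0.33 in that comparison. The 79 higher and 38 lower genes of all kept became 60 and 55 with centring, and 57 and 56 with quantiles normalised again. For every pair the missing replicates leave the interval of a difference unknown, so small differences do not show that fatty acids act alike.

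Further immediate early genes were listed to place the 10 among their class. Of 10 kept AP-1 and MAF genes, whose products dimerise through leucine zippers, 3 were beyond 1.5-fold upward in the palmitic acid array and 1, Jund, downward (-0.64), beside 2.17% and 1.41% of all kept genes. The higher ones were Jun (1.53), Mafk (0.95) and Fos (0.64). Fos was dim in the control, at 6.84, and its difference was 0.39 with values below log2 7.09 set to it. With oleic acid 0 of the 10 were beyond 1.5-fold, beside 0.376% higher and 0.34% lower of all kept genes. Fos at 0.58 was just inside the line. The list medians were 0.30 and 0.08.

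Of 30 other immediate early regulators 7 were beyond 1.5-fold upward in the palmitic acid array, beside 2.17% of all kept genes, and 2 downward, beside 1.41%. The higher ones were Csrnp1 (1.59), Ppp1r15a (1.11), Ccn2 (1.05), Ccn1 (0.97), Zfp36l2 (0.75), Tiparp (0.71) and Rcan1 (0.60). Ccn1 and Ccn2 code for matrix-associated proteins and Zfp36l2 for an RNA-binding protein that promotes mRNA decay. Lower were Cebpd (-1.11), a C/EBP factor gene of the inflammatory response, and Trib1 (-0.59), a pseudokinase gene. With oleic acid 0 were higher and 1, the nuclear receptor gene Nr4a3, was lower (-0.60), beside 0.376% and 0.34% of all kept genes. The list medians were 0.11 and 0.06. Ier2, Cebpd, Trib1 and Jund were thus low on the array on which Jun and Csrnp1 were high.

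The dual specificity phosphatases switch off MAP kinases, and the genes of some of them are immediate early genes. They were the list with the highest oleic acid median among those examined, 0.47 over 9 genes. At least 1.5-fold higher with oleic acid were 4 of the 9, Dusp1 (0.87), Dusp6 (0.79), Dusp10 (0.69) and Dusp5 (0.62), beside 0.376% of all kept genes, and 0 were lower, beside 0.34%. With palmitic acid 3 were higher, Dusp10 (1.39), Dusp1 (0.95) and Dusp8 (0.66), and 1, Dusp2, was lower (-0.71). Over all kept genes the shares with palmitic acid were 2.17% higher and 1.41% lower. Dusp6, which acts on ERK, stood at 9.25 in control, 8.71 in palmitic acid, 10.04 in oleic acid and 9.32 in linoleic acid cultures, the order of arrays seen for Ier3.

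Regulators upstream of the class were listed as well. Of the 6 genes for SRF and its partners 1 was at least 1.5-fold higher with palmitic acid, beside 2.17% of all kept genes. This was the coactivator gene Mrtfb (0.70). Elk3, a ternary complex factor gene, lay at -0.58 with palmitic acid and 0.38 with oleic acid, and Srf itself at -0.13 and 0.05. Of 15 listed ERK and CREB genes 11 were measured and 10 kept, and 0 were beyond 1.5-fold of the control with any fatty acid. The shares of all kept genes were at most 2.17% in either direction, so a count of 0 says little here. Largest among the 10 was the ERK inhibitor gene Spry2, at 0.52 with palmitic and 0.40 with oleic acid. With linoleic acid 0 genes of any of these lists were beyond 1.5-fold, beside 0.0358% of all kept genes in each direction.

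**Figure D4:**
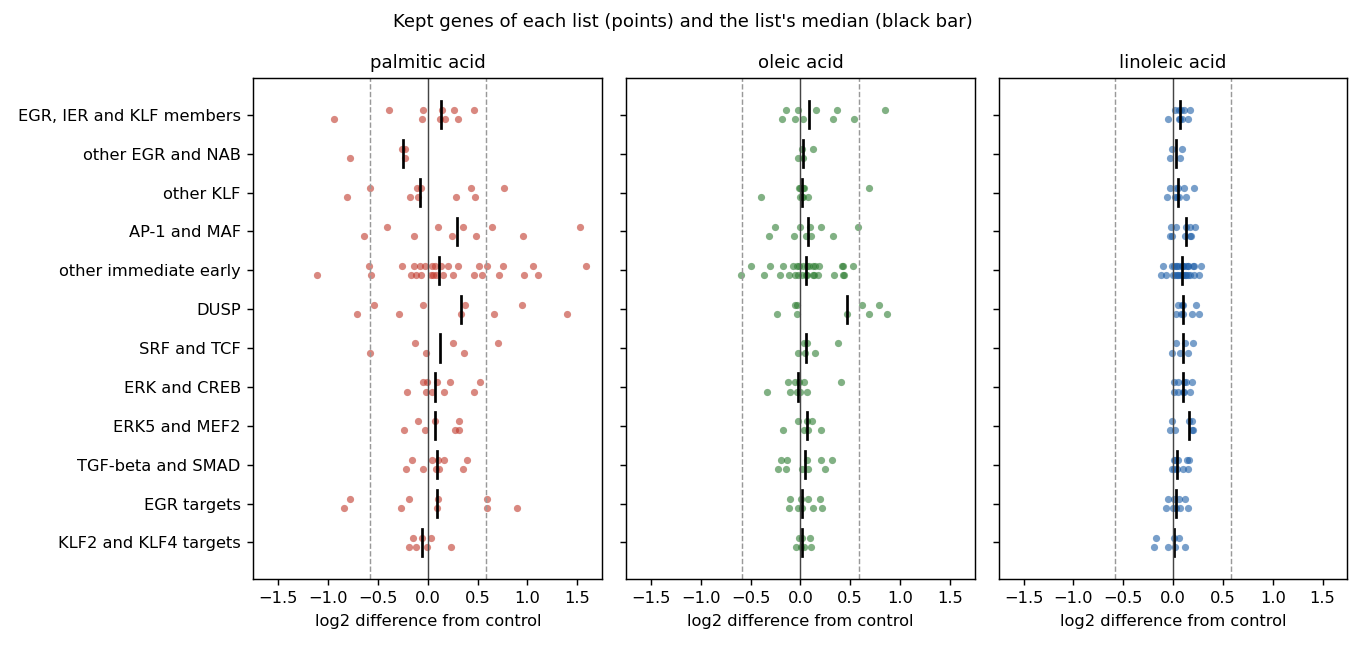
Points are the kept genes of each list (rows) by their log2 difference from the control (x axis), in a panel for each fatty acid, with the list median as a black bar and 1.5-fold as dashed lines. The highest point with palmitic acid is Csrnp1 at 1.59 and the lowest Cebpd at -1.11; some genes stand in more than 1 list.

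The label of the cells was checked against markers. Of 14 macrophage markers 13 were kept, with Lyz2 at 13.92, Cd68 at 13.65 and Adgre1 at 12.98 in the control. Their median difference was -0.08, 0.05 and 0.02 for palmitic, oleic and linoleic acid. Fcgr1 was the one marker beyond 1.5-fold, at -0.66 and 0.65 with palmitic and oleic acid. Of 11 neutrophil and eosinophil markers 3 were kept, of 9 measured lymphocyte markers 2, and of 7 mast cell markers 1. Array medians over all 35556 probes ran from 7.07 to 7.13, and the correlation between pairs of arrays over probes from 0.991 to 0.996.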

How the data were processed

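The authors deposited log2 values made with RMA (background correction, quantile normalisation and probe summary), per the submitters' processing notes. Not given in the sources used here are its version, its level of summary and the build, and the scale follows from values between 2.28 and 14.4. Per the labels, RNA of 3 samples was pooled for each of the 4 arrays and 100 ng was labelled, after an RNA integrity number above 8.0.

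Of 35556 probes, the platform annotation listed 23410, of which 21789 had exactly 1 gene. Probes with several genes (1621) were left out. Entrez IDs of 21698 probes were found in a RefSeq table of GRCm38.p6, and 0 symbols needed an update. Probes were averaged per gene, and genes whose highest value reached the median of all values, log2 7.09, were kept. Differences between arrays were taken per gene in 6 comparisons. No test was possible with 1 array per group, whose number limits the precision. Counting was tested on simulated data.

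The 10 genes and the gene lists were chosen with earlier results of these data known. Named were the 10 genes, list genes beyond 1.5-fold or the largest of a list, others as examples chosen after their values were seen, and the 3 nearest profiles of each of the 10 genes beyond 1.5-fold of the control, without predicted gene models. Alternatives covered scaling, probe choice, filters, a floor and the fold. Computation used Python 3.11.15 with pandas 2.3.3 and numpy 2.4.6.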

Additional observations from a re-analysis of the deposited data

How the results depend on the processing

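Under 6 alternatives of scaling, probe choice, filter and floor, all 330 recomputed differences of the 10 genes kept their side of the 1.5-fold line. Only centring and repeated quantile normalisation, with 60 differences each, could move a value. Each of the 10 genes has 1 probe and lay above the floor on every array, and a filter only keeps or drops genes. The other alternatives therefore returned the same values and do not test these differences. Signs changed in 6 of the rescaled differences, 3 with each scaling, each at most 0.06 in size before. The number of genes beyond 1.5-fold fell only with fewer genes or a larger fold. The filter at the 75th percentile of all values, log2 8.94, kept 5 of the 10 and dropped Ier2, so that 0 remained for palmitic acid against the control and 0 for palmitic against linoleic acid. With that filter the median rose to 0.33 for oleic acid against the control and lay at -0.28 for linoleic against oleic acid. At 2-fold the count was 0 for palmitic acid against the control, 0 for oleic acid against the control, 0 for palmitic against oleic acid and 0 for linoleic against oleic acid, while Ier2 stayed beyond it between palmitic and linoleic acid. At 1.4-fold, chosen after seeing the data, the count was 2 for oleic acid against the control, with Egr1 added. Over all 19938 genes, without the filter, linoleic acid against the control gave 20 higher and 9 lower, in place of 4 and 4 of 11174. The filter at the 75th percentile kept 5889 genes, and that comparison then gave 3 and 1. With it, linoleic against oleic acid gave 58 higher and 25 lower in place of 79 and 38. These counts come from gene sets of unlike size, so a smaller count need not be a smaller share. At 2-fold, 44 genes were higher and 33 lower with palmitic acid, 6 and 8 with oleic acid, and 0 and 0 with linoleic acid. No paired analysis was possible because each group is 1 array. Signal over background cannot be judged from these values.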
